A study of Mus musculus with 18 samples.

Results

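The suppressor of cytokine signaling (SOCS) family holds 8 genes in the mouse, *Cish* and *Socs1* to *Socs7*, and all 8 were found by symbol among the 50600 genes of the count table. They were followed through RNA-seq of FACS-purified Foxp3+ regulatory T cells (Tregs) from 18 C57BL/6 mice. Thymic Tregs came from 5 Foxp3/RFP reporter mice (WT) and from 5 "cured" CD25cKO mice (CD25 KO), all 3–4 weeks old. In the latter, a floxed *Il2ra*, the gene of the IL-2 receptor chain CD25, was deleted by a YFP/Cre expressed from *Foxp3*, and WT splenocytes given to the neonates prevented autoimmunity. The donor cells lack YFP, on which the host Tregs were sorted. Splenic Tregs came from 4 tamoxifen-treated reporter controls (WT) and from 4 CD25flox/Foxp3eGFP-Cre-ERT2/R26Y mice (CD25 KO), in which tamoxifen turned on the Cre and a YFP label in Foxp3-expressing cells. Tamoxifen was given at 7–10 weeks of age, and these cells were taken 10–14 days later. The question was which transcripts of IL-2-driven feedback depend on CD25 in Tregs of either site. The count table's column names carry 1 date per tissue, of a kind not stated, so tissue, date, mouse model, age and tamoxifen changed together. In the thymus, WT and CD25 KO also differed in the *Foxp3* reporter allele and in Cre. The splenocyte transfer is described for the thymic CD25 KO mice alone, so it too changed with genotype there.

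IL-2 binds a receptor of CD25, CD122 and the common gamma chain, JAK1 and JAK3 phosphorylate STAT5, and STAT5 turns on genes that include the receptor's own inhibitors. Every SOCS protein has a central SH2 domain that binds phosphotyrosine and a C-terminal SOCS box that recruits a Cullin-5 ubiquitin ligase. CIS, the product of *Cish*, and SOCS2 compete for receptor sites and restrain STAT5, SOCS1 and SOCS3 also block JAK kinase activity directly, and SOCS4 to SOCS7, with long N-terminal regions, are better known from receptor tyrosine kinase and insulin signaling.

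On GRCm38, *Cish* lies at chr9:107296026-107302784 on the plus strand, and *Socs5* at chr17:87107679-87137839 on the same strand. On the minus strand are *Socs1* at chr16:10782240-10785536, *Socs2* at chr10:95385362-95417180 and *Socs3* at chr11:117966079-117970047. All 8 are protein coding, and reads counted on them are reads over any of their exons. The exons of *Cish* share bases with 2 genes of the opposite strand, which had at most 8 counts in any sample against at least 1919 for *Cish*. Whether counting used strand is not given in the sources used here.

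RefSeq promoter windows of 250 bases before and 50 after the start (GRCm38.p6) were at hand for *Cish*, *Socs1*, *Socs3* and *Socs4*. They were searched on both strands for the STAT motif TTCNNNGAA, which is its own reverse complement. It stood once before the RefSeq start of *Socs3*, though inside the longer GENCODE span of that gene given above. No match lay before the RefSeq starts of *Cish*, *Socs1* or *Socs4*. Of 32851 promoters, 7.02% held a match in the 250 bases before the start. In *Cish*, 2 matches lay from the RefSeq start onward, within the first exon of a longer GENCODE transcript (8.30% of promoters hold a match when the 50 bases past the start are added, a window chosen after the sequence was seen). In *Socs1*, a pair of overlapping matches to GAAA, any 2 bases, GAAA, a pattern typical of interferon regulatory factor sites, lay before the start. That pattern, also chosen after the sequence was seen, stands before the start of 2.98% of promoters. The stretches of the genes that moved together in the thymus follow, 5′ to 3′ on the gene's strand, with matches in capitals, at chr9:107296649-107296678 for *Cish*, chr16:10785584-10785639 for *Socs1* and chr11:117969502-117969530 for *Socs3*.
Cish: ccgcccagttTTCCTGGAAagTTCTTGGAA
Socs1: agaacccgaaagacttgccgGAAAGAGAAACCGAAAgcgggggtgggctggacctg
Socs3: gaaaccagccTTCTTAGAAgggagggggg
A match is a run of letters, and binding was not measured here.

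Reads counted on genes numbered 17239774 to 23993674 per thymic and 25258341 to 32639570 per splenic sample, so that 3 counts, taken as the smallest detectable level, were at most 0.174 CPM of a sample's unscaled total, a floor that covers counting error only. All CPM given for genes are counts scaled to library size by TMM over all samples. *Il2ra* was at 524 to 682 CPM in thymic WT and 95.8 to 280 in thymic CD25 KO, and at 488 to 538 in splenic WT and 168 to 208 in splenic CD25 KO Tregs. The deletion takes out exon 4, and reads on the other exons are counted too. The 7 Treg and T cell markers summed to 3006 to 4268 CPM per library, against 10.2 to 23.9 for 5 B cell markers. In the spleen, CD25 KO lay above WT in summed NK cell markers (10.9 to 16.2 against 4.71 to 8.02 CPM, with *Ncr1* at 0 in every splenic library) in summed myeloid markers (21.8 to 28.4 against 16.9 to 21.8 CPM) and in summed immature thymocyte markers (33.2 to 36.55 against 26.8 to 32.8 CPM). Of the 5 myeloid markers, *Lyz2* was at 11.45 to 15.05 CPM in splenic CD25 KO and 4.41 to 9.48 in splenic WT, while *Csf1r* was at 4.00 to 7.19 and 5.70 to 8.59 CPM. *Cd1d1* made up most of the splenic thymocyte sum, at 32.7 to 36.2 CPM in CD25 KO and 26.2 to 31.7 in WT. Immature thymocyte markers summed to 54.6 to 151 CPM in thymic WT and 63.8 to 111 in thymic CD25 KO Tregs, and *Rag1* was at 0 in the spleen. The part of these cells in the results was not tested.

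In the thymus, *Cish*, *Socs1*, *Socs2* and *Socs3* were all lower in CD25 KO Tregs, *Socs2* by far the most, while *Socs4*, *Socs5*, *Socs6* and *Socs7* did not pass the test. In the spleen, *Cish*, *Socs1* and *Socs2* were lower, *Socs3* was not called, and *Socs5* was higher. Thus 4 of the 8 genes fell in the thymus, where 6.16% of 16986 genes tested were called and 2.99% were called lower. In the spleen, 3 fell and 1 rose, where 9.45% of 17463 genes were called and 3.55% were called lower. The mice of the 2 genotypes stood wholly apart in 5 of the 8 genes in the thymus (16.4% of all genes tested) and in 4 of the 8 in the spleen (20.4%). The 8 genes had a median log2 fold change of -0.58 (thymus) and -0.04 (spleen), against -0.002 and -0.006 over all genes tested. All 8 passed the filter on low counts in every comparison. A gene was called at FDR < 0.01 by the quasi-likelihood test of edgeR, adjusted over all genes tested by the Benjamini-Hochberg procedure, and "edgeR adjusted p" is that FDR throughout. Since these are bulk samples, fewer cells with a transcript and less of it per cell cannot be told apart.

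**Figure D1:**
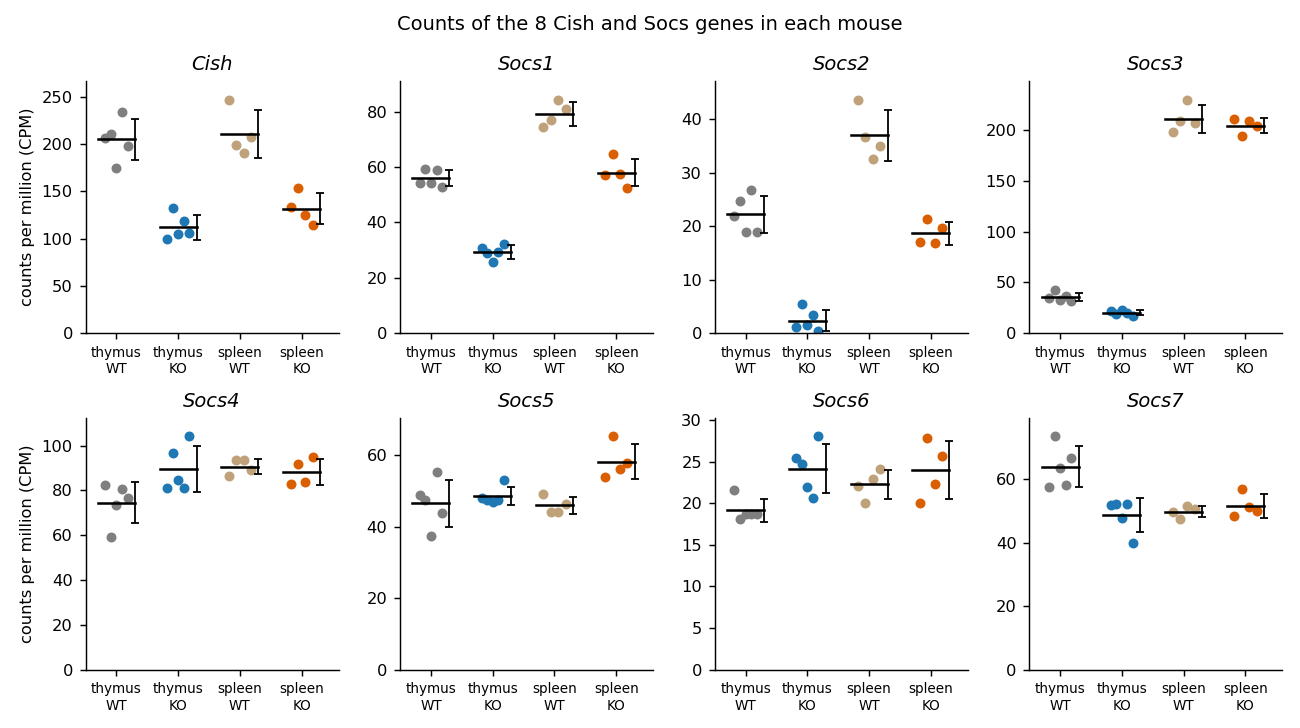
Level of each SOCS family gene in CPM (linear axis from 0) in the 4 groups, with a point per mouse, a line at the mean and a bar of ± SD. Thymic CD25 KO mice lie below all thymic WT mice for *Cish*, *Socs1*, *Socs2*, *Socs3* and *Socs7*, and splenic CD25 KO mice lie below splenic WT mice for *Cish*, *Socs1* and *Socs2* and above them for *Socs5*.

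*Cish*, a direct STAT5 target, was the most abundant family member of thymic Tregs per length. In WT thymus it was at 207, 211, 175, 235 and 198 CPM in mice 1 to 5, and in CD25 KO thymus at 99.6, 132, 104, 118 and 106 CPM. Every CD25 KO mouse lay below every WT mouse, and among the CD25 KO mice 2 and 4 were the highest. *Cish* fell to 55.3% of the WT level (log2 fold change -0.85 ± 0.093 SE, edgeR adjusted p = 0.000339). In the spleen, WT mice 1 to 4 held 247, 199, 190 and 207 CPM and CD25 KO mice 133, 154, 125.1 and 115 CPM. The groups did not overlap there either, and *Cish* fell to 62.5% of WT (log2 fold change -0.68 ± 0.089 SE, edgeR adjusted p = 7.25e-05). The difference between the tissues' log2 fold changes, spleen minus thymus, was 0.19 ± 0.14 SE, which did not pass the test (edgeR adjusted p = 0.362).

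*Socs2*, which encodes the inhibitor best known for restraining growth hormone and STAT5 signaling, had the largest fold difference of the family in either tissue. Thymic WT mice 1 to 5 were at 21.9, 24.7, 18.98, 26.7 and 18.95 CPM, and thymic CD25 KO mice at 1.05, 5.44, 1.47, 3.29 and 0.472 CPM, from 9 to 118 counts. All CD25 KO mice were far below WT, but they differed among themselves more than in any other gene of the family and group, with a coefficient of variation of 86.4% against 3.47% to 15.5% elsewhere. *Socs2* fell to 10.9% of WT in the thymus (log2 fold change -3.20 ± 0.43 SE, edgeR adjusted p = 0.00114). In the spleen it was at 43.7, 36.7, 32.5 and 35.0 CPM in WT and at 17, 21.3, 16.8 and 19.7 CPM in CD25 KO mice 1 to 4. These groups did not overlap, and the CD25 KO mice were close to each other. *Socs2* fell to 50.6% of WT in the spleen (log2 fold change -0.98 ± 0.097 SE, edgeR adjusted p = 5.06e-06), a call that was lost when the spread was shared with the thymic samples in 1 fit (edgeR adjusted p = 0.0361). The log2 fold changes differed by 2.22 ± 0.43 SE between the tissues (edgeR adjusted p = 0.00163).

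Thymic CD25 KO mice 2 and 4, which held the most *Socs2* and the most *Cish*, were also the mice with the most *Il2ra*. Their *Il2ra* was at 280 and 234 CPM, against 105, 96.1 and 95.8 CPM in mice 1, 3 and 5. Their libraries were also closer to each other over all genes (a chi-square of the counts per degree of freedom of 8.42) than to those of mice 1, 3 and 5 (16.1 to 47.1), as were those of mice 1 and 3 (4.67). *Socs1* and *Socs3* did not set mice 2 and 4 apart from the other 3. Leaving both out took the thymic log2 fold change of *Socs2* from -3.20 to -4.47 ± 0.26 SE and that of *Cish* from -0.85 to -0.98 ± 0.089 SE (edgeR adjusted p = 4.02e-06 and 4.74e-05). Those of *Socs1* and *Socs3*, -0.92 and -0.79 without these mice, moved little, and the difference of *Socs2* between the tissues became 3.49 ± 0.27 SE. Since these were the thymic CD25 KO mice with the most *Socs2* and *Cish*, leaving them out could only enlarge the differences of both genes. How *Il2ra* transcript comes to be higher in these mice was not tested.

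**Figure D2:**
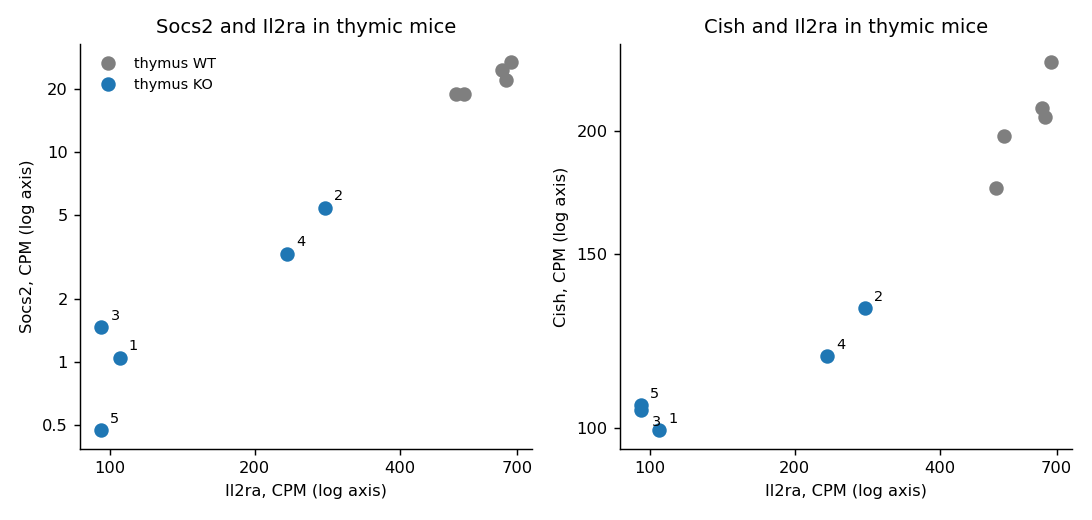
*Socs2* (left) and *Cish* (right) against *Il2ra* in the 10 thymic mice, all in CPM on log axes, with WT in grey, CD25 KO in blue and the CD25 KO mice numbered. CD25 KO mice 2 and 4 lie to the right of and above the other CD25 KO mice in both panels, and below the WT mice.

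*Socs1* encodes the inhibitor of JAK kinases that restrains interferon-gamma signaling and on which Treg function depends. Its thymic levels were 54.4, 59.5, 54.2, 59.1 and 53.0 CPM in WT and 30.6, 29.1, 25.6, 29.4 and 32.2 CPM in CD25 KO mice 1 to 5. Both groups were narrow and far apart, and *Socs1* fell to 53.0% of WT (log2 fold change -0.92 ± 0.067 SE, edgeR adjusted p = 1.27e-05). Splenic WT mice 1 to 4 held 74.6, 77.2, 84.4 and 81.2 CPM and splenic CD25 KO mice 57.3, 64.9, 57.5 and 52.6 CPM. Again there was no overlap, and the log2 fold change was -0.45 ± 0.065 SE (73.2% of WT, edgeR adjusted p = 0.000173). The effect was smaller in the spleen by 0.48 ± 0.098 SE on the log2 scale (edgeR adjusted p = 0.00243). With the trend on GC content removed from each library, that difference was 0.32 ± 0.12 SE and no longer called (edgeR adjusted p = 0.0722).

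*Socs3*, the inhibitor that binds gp130 and limits IL-6 and STAT3 signaling, differed between WT and CD25 KO in the thymus and showed no detectable difference in the spleen. Thymic WT mice 1 to 5 were at 34.8, 42.4, 32.4, 36.2 and 31.4 CPM and thymic CD25 KO mice at 21.2, 19.2, 22.8, 20.2 and 17.2 CPM. No CD25 KO mouse reached the lowest WT mouse, and *Socs3* fell to 57.4% of WT (log2 fold change -0.80 ± 0.093 SE, edgeR adjusted p = 0.000461). In the spleen, its levels were several times higher, at 198, 209, 230 and 207 CPM in WT and 211, 195, 209 and 204 CPM in CD25 KO mice 1 to 4. These groups overlapped, with the lowest mouse in CD25 KO and the highest in WT, and had a log2 fold change of -0.04 ± 0.053 SE (edgeR adjusted p = 0.640). The difference between the tissues was itself called (0.77 ± 0.11 SE, edgeR adjusted p = 0.000153). With *Socs1* and *Socs2*, it made 3 of the 8 genes whose CD25 KO effect differed between tissues, where 6.98% of 18686 genes tested did.

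The 4 genes with long N-terminal regions moved less. *Socs5*, which encodes an adaptor reported to act on epidermal growth factor and IL-4 receptors, was at 49.1, 44.1, 44.0 and 46.4 CPM in splenic WT and 53.8, 65.2, 56.0 and 57.7 CPM in splenic CD25 KO mice 1 to 4. The CD25 KO mice were all above the WT mice, and *Socs5* rose by a log2 fold change of 0.34 ± 0.066 SE (edgeR adjusted p = 0.00184), a call also lost in the fit of all 18 samples (edgeR adjusted p = 0.0191). In the thymus *Socs5* was at 37.5 to 55.4 CPM in WT and 46.8 to 53.1 CPM in CD25 KO mice, a log2 fold change of 0.08 ± 0.091 SE (edgeR adjusted p = 0.572), and the tissues' effects did not differ by the test (0.28 ± 0.12 SE, edgeR adjusted p = 0.111).

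*Socs7*, whose product acts on insulin receptor signaling, was at 57.7, 73.5, 63.6, 58.3 and 66.8 CPM in thymic WT and 51.9, 52.2, 47.9, 52.2 and 39.8 CPM in thymic CD25 KO mice 1 to 5. The groups did not overlap, but the log2 fold change of -0.37 ± 0.086 SE missed the threshold (edgeR adjusted p = 0.0118), and DESeq2 called it (adjusted p = 0.00118). In the spleen it was at 47.5 to 51.6 CPM in WT and 48.4 to 57.0 CPM in CD25 KO (log2 fold change 0.06 ± 0.060 SE, edgeR adjusted p = 0.587). The difference between the tissues, 0.44 ± 0.12 SE, also missed the threshold (edgeR adjusted p = 0.013) and was called by DESeq2 (adjusted p = 0.00234). *Socs6*, a relative of *Socs7*, was at 18.1 to 21.6 CPM in thymic WT and 20.6 to 28.0 CPM in thymic CD25 KO, and the groups overlapped through 1 WT mouse. Its thymic log2 fold change of 0.35 ± 0.091 SE was not called by edgeR (adjusted p = 0.0190) but by DESeq2 (adjusted p = 0.00410), and in the spleen it was 0.11 ± 0.096 SE (edgeR adjusted p = 0.495). *Socs4*, the closest relative of *Socs5*, was at 59.3 to 82.5 CPM in thymic WT and 81.0 to 104 CPM in thymic CD25 KO mice, a log2 fold change of 0.28 ± 0.10 SE (edgeR adjusted p = 0.0652), and at 82.7 to 94.8 CPM in all splenic mice, with a log2 fold change of -0.04 ± 0.057 SE (edgeR adjusted p = 0.707).

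The longest transcripts of the 8 genes differ in GC content, and thymic values shifted when the GC trend was removed. *Socs4* and *Socs6*, at 38.5% and 39.9% GC, had the only thymic log2 fold changes above 0.1, and *Socs1* and *Socs3*, at 58.8% and 58.7%, were among those that fell. After the GC trend of each library was removed, the thymic log2 fold change was -0.03 for *Socs4* and 0.08 for *Socs6*, so no direction can be given for *Socs4*. The 4 called genes kept their calls, at -0.74 for *Cish*, -0.73 for *Socs1*, -3.24 for *Socs2* and -0.63 for *Socs3* (edgeR adjusted p = 0.000516, 0.00052, 0.000724 and 0.000617). The tissue difference of *Socs3* also kept its call, at 0.62 ± 0.095 SE (edgeR adjusted p = 0.000197).

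**Figure D3:**
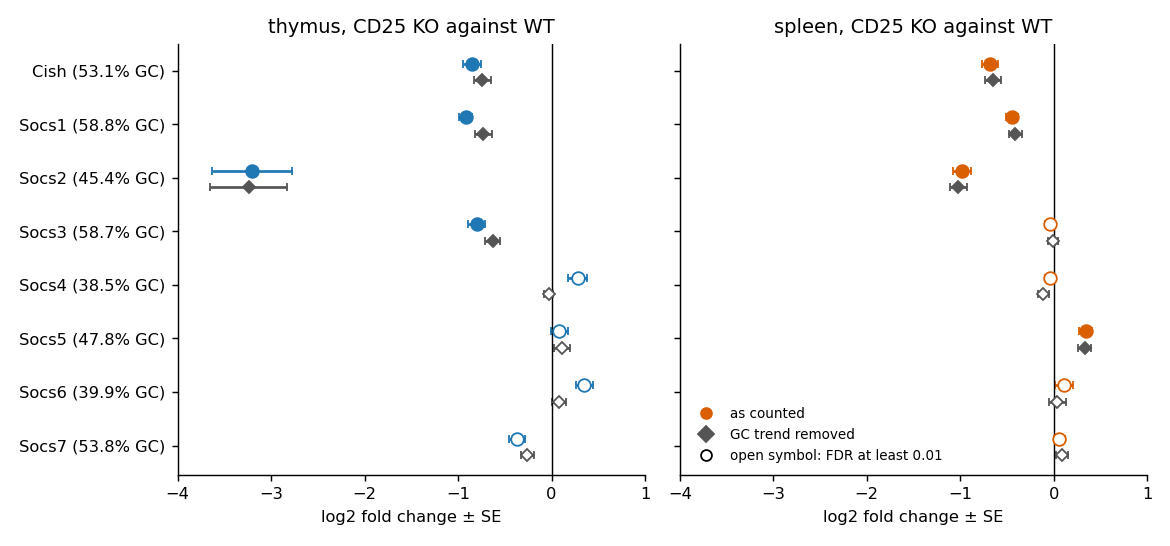
Log2 fold change of CD25 KO against WT with its SE for the 8 genes in thymic (left) and splenic (right) Tregs, as counted (circles) and with the GC trend of each library removed (diamonds), and with filled symbols at FDR < 0.01. *Socs4* and *Socs6* move toward 0 in the thymus when the GC trend is removed, while *Cish*, *Socs1*, *Socs2* and *Socs3* stay below 0 and called.

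Between WT Tregs of the sites, the family differed mainly in *Socs3*. Splenic WT Tregs held 5.95 times the thymic level of *Socs3* (log2 fold change 2.57 ± 0.081 SE, edgeR adjusted p = 2.14e-15) and 1.42 times that of *Socs1* (0.50 ± 0.068 SE, edgeR adjusted p = 3.75e-06), while *Socs7* was lower in the spleen (-0.36 ± 0.082 SE, edgeR adjusted p = 0.000965). For *Cish* no difference was detectable (0.04 ± 0.099 SE, edgeR adjusted p = 0.752). *Socs2* (0.73 ± 0.27 SE, edgeR adjusted p = 0.0289) and *Socs4* (0.28 ± 0.087 SE, edgeR adjusted p = 0.0101) missed the threshold, and *Socs5* and *Socs6* were at -0.02 and 0.22. The 3 calls stand against 40.4% of 18686 genes called in this comparison, and tissue, date, age, reporter and tamoxifen cannot be told apart in it.

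Per length, the order of the genes differed between the sites. In WT thymus, *Cish* led with 31.9 ± 3.36 CPM per kb of exons (SD, n = 5), followed by *Socs1* at 19.3 ± 1.04. *Socs3*, *Socs4*, *Socs7* and *Socs5* followed at 12.3, 10.8, 8.81 and 7.26 CPM per kb, where each overlapped its neighbour in the range over mice, and *Socs2* and *Socs6* were last at 2.33 and 1.69. In WT spleen, *Socs3* led with 72.9 ± 4.70 CPM per kb (SD, n = 4), or 43.9% of the sum over the 8 genes, before *Cish* at 32.9 ± 3.91 and *Socs1* at 27.3 ± 1.49. *Socs4* was next at 13.2, *Socs5* and *Socs7* overlapped at 7.16 and 6.86, and *Socs2* and *Socs6* were again last at 3.88 and 1.96.

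In CD25 KO Tregs, the sum over the 8 genes was lower in both tissues, and it shifted toward the genes that had not fallen. It went from 94.4 ± 6.33 to 64.2 ± 2.87 CPM per kb in the thymus and from 166 ± 3.71 to 144 ± 3.90 in the spleen (SD over mice), with no overlap between groups. In CD25 KO thymus *Cish* still led, at 17.5 CPM per kb, but *Socs4* at 13.02 stood before *Socs1* at 10.1, and *Socs2* was last at 0.246. In CD25 KO spleen *Socs3*, at 70.7 CPM per kb, made up 49.0% of the sum, *Cish* and *Socs1* overlapped at 20.5 and 19.97, and *Socs2* and *Socs6* overlapped at 1.96 and 2.11. The order depends on which length is used. With the longest coding transcript, a scale added after the values were seen, *Socs2* ranked 4 in WT spleen and 6 in WT thymus, and *Socs3* and *Cish* overlapped in WT spleen, while *Cish* still led in both thymic groups and *Socs2* was still last in CD25 KO thymus. On that scale *Cish* at 46.2 and *Socs1* at 19.97 CPM per kb did not overlap in CD25 KO spleen. *Socs3* then made up 35.25% of the sum in WT and 41.86% in CD25 KO spleen.

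**Figure D4:**
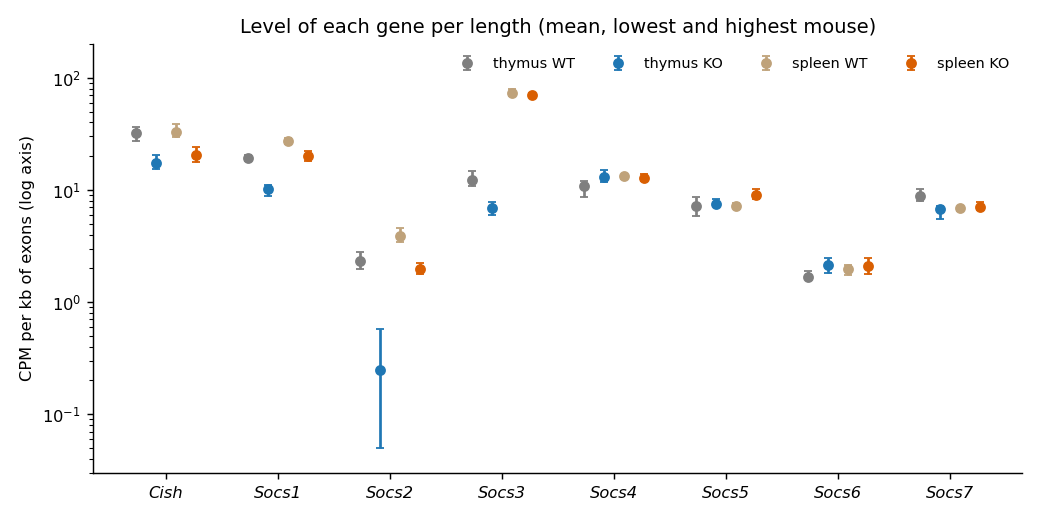
CPM per kb of merged exons (log axis) of the 8 genes in the 4 groups, with a point at the mean and bars from the lowest to the highest mouse. *Socs3* stands out in both splenic groups at 72.9 and 70.7, and *Socs2* in CD25 KO thymus at 0.246.

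The patterns over the 18 mice were compared with those of 12313 genes by the root mean square difference of log2 CPM, after centring each tissue on its WT mean. *Cish* was nearest to *Foxp3* (0.14), *Xxylt1*, a xylosyltransferase gene (0.183), and *Socs1* (0.187), and *Socs1* was nearest to *Foxp3* (0.172), *Cish* (0.187) and the syndecan gene *Sdc4* (0.191). *Foxp3* is the gene whose reporters defined the thymic sort and from which the Cre behind the splenic YFP label is expressed. The log2 fold changes of *Foxp3* were -0.74 (thymus) and -0.55 (spleen). *Socs2* was nearest to the retinol transporter gene *Stra6* (0.808), the potassium channel gene *Kcnj15* (0.811) and the mTORC1 regulator *Rragd* (0.858). *Socs2* itself lay 2.07 from its own WT mean, against 0.579 for *Cish*, 0.543 for *Socs1* and 0.444 for *Socs3*. Distances grow with the size of the change, so they do not rank these genes by how closely they are matched. *Socs3* was nearest to the sorting receptor gene *Sorl1* (0.137), *Plcb3* (0.14) and *Rab4a* (0.156), which were at -0.63, -0.71 and -0.85 in the thymus and at 0.10, -0.07 and -0.13 in the spleen. These distances are a description, since the same libraries gave all values.

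Genes around the family were taken from fixed lists, whose counts stand against the shares of all genes tested that were called lower and higher, 2.99% and 3.17% in the thymus and 3.55% and 5.9% in the spleen. Of the 8 genes of the IL-2 receptor, its JAKs and STAT5, 7 were tested in the thymus, where *Il2ra* (log2 fold change -1.90) and *Il2rb*, the gene of CD122 (-0.79), fell, and 8 in the spleen, where only *Il2ra* (-1.49) was called by edgeR. DESeq2 called 2 of this list lower in the spleen. With the GC trend removed, 1 gene of the list was called higher in the thymus. The 18 genes regulated by STAT5 outside the family again included *Il2ra*, the targeted gene, which loses its exon 4 reads by design. Of the 18, 7 fell in the thymus, led by *Il2ra* and the transcription factor genes *Prdm1* (-1.05) and *Myc* (-0.96). In the spleen 8 of the 18 fell, led by *Il2ra*, the lymphotoxin gene *Lta* (-1.15) and *Myc* (-1.02), while 4 rose, led by the cytotoxic protease gene *Gzmb* (3.41), *Tbx21* (1.00) and *Prdm1* (1.00). These 18 genes had a median log2 fold change of -0.65 in thymic and -0.27 in splenic Tregs. The list does not part genes that STAT5 raises from genes that it lowers, so the median carries no expected sign. Of 6 other JAKs and STATs, *Jak2* (0.48) and *Stat4* (0.24) rose in the spleen, *Stat4* no longer called with the GC trend removed. In the thymus edgeR called none of them, 2 had an unadjusted p under 0.05, and DESeq2 called 1 lower and 1 higher.

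Of 23 other cytokine receptor chains, 19 were tested in the thymus, where *Il9r* (log2 fold change -1.89), *Il10ra* (-1.86) and *Il4ra* (-0.46) fell, and 16 in the spleen, where 4 fell, among them *Il6ra* (-0.46), *Ifngr2* (-0.44) and *Il4ra* (-0.40), and *Ifngr1* rose (0.55), against the 6.16% and 9.45% of all genes called in either direction. Of 17 interferon-induced genes, the response that SOCS1 limits, *Irf1* rose in the thymus (0.34) and the chemokine gene *Cxcl10* (1.07) and *Oas1a* (0.38) rose in the spleen. No other gene of the 17 was called by edgeR, and their median log2 fold changes were 0.01 in the thymus and 0.13 in the spleen. Of 11 genes regulated by STAT3, the pathway that SOCS3 limits, none of the 8 tested was called in the thymus by edgeR (3 at an unadjusted p under 0.05, and 1 by DESeq2), and 5 of 10 rose in the spleen, led by the cytokine genes *Il10* (2.02) and *Il21* (1.53) and by *Batf* (0.78), where 5.9% of all genes tested rose. The medians of the STAT3 list were -0.30 (thymus) and 0.45 (spleen). *Socs3* itself was not called in the spleen (log2 fold change -0.04). The paper counts *Il10* among transcripts of activated effector Tregs, and by flow cytometry splenic CD25 KO Tregs held a larger share of such cells. The part of this shift or of *Socs3* in these values was not tested.

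Over all genes tested, edgeR called 6.16% in the thymus and 9.45% in the spleen. None of the 9 genes of the Cullin-5 ligase core, the machinery shared by SOCS boxes, was called in either tissue by edgeR. At those shares, no call among 9 genes says little about this machinery. Its median log2 fold changes were 0.00 and 0.09 in thymus and spleen. An unadjusted p under 0.05 was reached by 4 thymic and 2 splenic values, and DESeq2 called 1 thymic value and 0 splenic ones. Of 27 other genes for SOCS-box proteins, 16 were tested in each tissue. In the thymus *Asb2*, an ankyrin-repeat member, fell (-2.36) and *Asb14* rose (1.11), and in the spleen none was called by edgeR or DESeq2, with 5 at an unadjusted p under 0.05. Of 13 other inhibitors of JAK and STAT signaling, the phosphatase genes *Ptpn1* (-0.38) and *Ptprc* (0.54) were called in the thymus and *Ptpn11* (0.49) in the spleen, by the same edgeR threshold. The calls of *Ptpn1* and *Ptprc* were lost when the GC trend was removed.

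**Figure D5:**
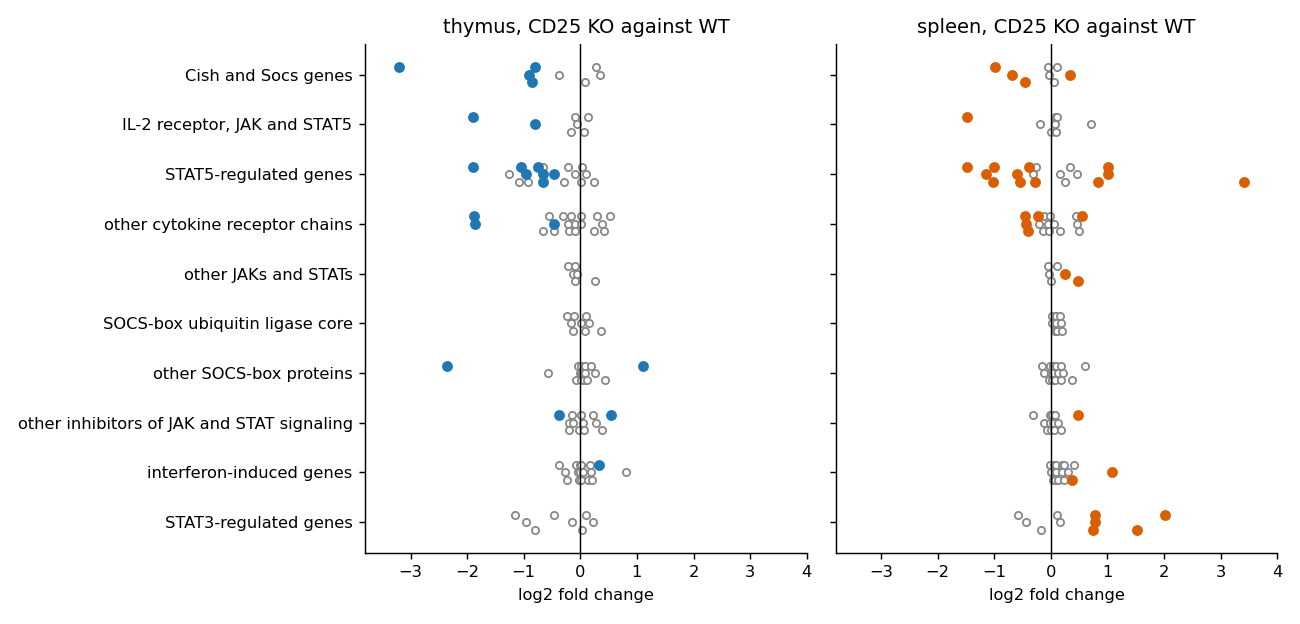
Log2 fold change of CD25 KO against WT for the tested genes of the 8-gene SOCS family and of 9 gene lists around them, in thymic (left) and splenic (right) Tregs, with filled points at FDR < 0.01 and open points otherwise. The SOCS family's called genes lie at -0.80 or below in the thymus, and the STAT3-regulated genes called in the spleen all lie above 0.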

How the data were processed

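RNA was sequenced from FACS-purified Tregs of 18 mice as 75 bp paired-end reads. Per the submitters' processing notes and the paper, the authors aligned reads to GRCm38 with STAR 2.5.0b, counted them per gene of GENCODE M13 with featureCounts 1.5.0 and deposited raw counts without normalization. Symbols, exon lengths and GC content came from GENCODE M21, in which 50376 of 50600 identifiers matched, and promoters from RefSeq, with 4 of the 8 genes matched. Each sample is an individual mouse.

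In R 4.3.3 with edgeR 4.0.16, genes were kept by filterByExpr, libraries were scaled by TMM, and the genotypes were compared tissue by tissue with the quasi-likelihood test, Benjamini-Hochberg adjustment and a call at FDR < 0.01. The difference between tissues and the WT comparison came from 1 fit of all 18 samples. CPM used TMM factors over all samples, and log2 CPM a prior count of 2. Depth was 17239774 to 32639570 counts per sample. DESeq2 1.42.0, RLE and upper-quartile scaling, filters, FDR < 0.05, GC correction, a block on the mouse number and leaving out mice were alternatives. The fits were tested on simulated data. The family and the gene lists were chosen with earlier results of these data known. From each list, up to 3 called genes per direction and tissue are named, and for *Cish*, *Socs1*, *Socs2* and *Socs3* the 3 genes of nearest pattern, among those with a mean log2 CPM of at least 1. A gene of the lists is not reported here.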

Additional observations from a re-analysis of the deposited data

Results flagged for a closer look

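The CD25 KO effect differed between tissues by the test of the difference itself for *Socs1* (spleen minus thymus 0.48 on the log2 scale), *Socs2* (2.22) and *Socs3* (0.77). With the GC trend removed, the difference of *Socs1* was 0.321 and no longer called (edgeR adjusted p = 0.0722). *Socs1* and *Socs2* fell in both tissues and *Socs3* was called lower in the thymus alone. Tissue, date, mouse model and age cannot be told apart in these differences. By flow cytometry in the paper, thymic CD25 KO Tregs of "cured" adult mice were skewed toward resting central Tregs. Splenic CD25 KO Tregs were skewed toward activated effector Tregs. The paper allows that some differences between the sites may be secondary to these opposite skews. Their part in the values here was not tested. In 32 groups of 4 or 5 mice examined, 2 held a mouse set apart from the rest, where chance gives about 1 in 20 groups. *Socs5* was at 53.1 CPM in thymic CD25 KO mouse 5 and at 46.8 to 47.9 CPM in the other 4, and *Socs6* at 21.6 CPM in thymic WT mouse 1 and at 18.1 to 18.7 CPM in the other 4. Neither gene was called in the thymus by edgeR.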

How the results depend on the processing

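Over the alternatives of scaling, filter, tool, threshold, GC correction, block and samples in the fit, 3 to 6 of the 8 genes were called in the thymus, 2 to 4 in the spleen, 2 to 4 in the difference between tissues and 3 to 5 between WT Tregs. Of all genes tested, these alternatives called 1.23% to 23.3% (thymus), 4.25% to 17.2% (spleen), 3.89% to 16.9% (difference) and 23.1% to 52.4% (WT). *Cish*, *Socs1* and *Socs3* in the thymus and *Cish* and *Socs1* in the spleen were called in every one, and *Socs2* in the thymus in every one that tested it (a minimum of 10 counts per sample leaves it out). The spleen count became 2 in 1 fit of all 18 samples. The WT count became 5 at FDR < 0.05 and 5 with the GC trend removed, and leaving out 1 mouse gave 3 to 5, with 5 without thymic CD25 KO mouse 5. Directions reversed only where no call was made: *Socs4* in the thymus became -0.026 with the GC trend removed and -0.027 with the replicate block as well, *Socs5* between WT Tregs became 0.004 with the GC trend removed and -0.12 to 0.019 without 1 mouse, and *Cish* between WT Tregs ranged from -0.044 to 0.075 without 1 mouse. Leaving out 1 mouse gave 4 called genes in every thymic and splenic fit and 3 to 4 for the difference. The same fits called 2.16% to 6.34% (thymus), 6.19% to 9.74% (spleen) and 4.31% to 7.97% (difference) of all genes tested. Between WT Tregs they called 35.3% to 43.0% of all genes, so 3 to 5 of 8 there says little about the family.

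Counts over all genes moved more. In the thymus 1047 became 3951 at FDR < 0.05, 2733 with DESeq2, 2881 in 1 fit of all samples, 2008 without CD25 KO mice 2 and 4, and 371 to 428 without WT mouse 2, 3 or 5 or CD25 KO mouse 1 or 3. In the spleen 1651 became 3001 at FDR < 0.05, 795 in 1 fit and 1099 without WT mouse 3. In the difference 1305 became 3149 at FDR < 0.05, 2193 with DESeq2, 2307 without CD25 KO mice 2 and 4 and 817 without splenic CD25 KO mouse 2. Same-numbered thymic mice correlated at -0.239 to 0.144, so the numbers do not pair them. With the number as a replicate block, *Cish*, *Socs1*, *Socs2* and *Socs3* were the 4 called genes, also with the GC trend removed, among 209 and 242 genes in all. *Socs2* rests on 9 to 118 counts in thymic CD25 KO Tregs, few enough for depth to add to its error there. The size of its thymic log2 fold change also depended on the mice in the fit. It was -3.20 with all mice and -4.47 without CD25 KO mice 2 and 4, which held the most *Socs2* of their group.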
